A study of Mus musculus with 22 samples.

Results

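The genes described here are those of the interferon response and of antigen presentation by major histocompatibility complex (MHC) class I. They were chosen by name, from a list of 39 genes, and a probe was found for each by matching its accession to a table of gene names. Of the 39 genes, 37 had a probe, out of 20018 named genes on the array, and no probe matched Mx1 or Mx2. FE1 cells, an epithelial line derived from the lung of the transgenic Muta Mouse, were incubated for 24 h with Mitsui7, a multi-walled carbon nanotube, at 12.5 (low dose), 25 (medium dose) or 100 µg/ml (high dose), or at 0 µg/ml in the vehicle control. Total RNA was hybridised to 22 2-colour arrays, with 5 arrays for the control, 6 for the low, 5 for the medium and 6 for the high dose. Sample RNA was labelled with Cy5 on every array and Universal Mouse Reference RNA, a pool from 11 mouse cell lines, with Cy3. All groups share the cell line, the medium and the reference, and differ in the concentration of Mitsui7. A value below is the loess-normalised log2 ratio of Cy5 to Cy3, so 0 means a level equal to that in the reference RNA, and levels of different probes were not compared.

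Type I interferons (alpha and beta) and type III interferons (lambda) signal through cell surface receptors and JAK kinases to the factor ISGF3, which contains STAT2 and IRF9 and binds the interferon-stimulated response element (ISRE) in promoters of antiviral genes. Interferon gamma acts through another STAT complex on the gamma-activated site (GAS) and is known for inducing the immunoproteasome, the peptide transporter and MHC class I. Epithelial cells of the airways are among the first to mount this response to a virus, and most of these genes also have a basal level without infection.

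The response of these genes was split, with members called higher and members called lower at the same dose. A gene was called when its adjusted p was at most 0.05, its change at least 1.5-fold and its probe detected on at least 4 arrays of the exposed or the control group. The low dose counts were 4 of 37 members called higher and 2 lower, beside 1.48% and 2.05% of the 20018 named genes. At the medium dose the counts were 3 higher and 5 lower, beside 2.84% and 3.11% of all genes. The high dose gave 7 higher and 5 lower, beside 3.82% and 4.49%. The 20018 genes include undetected genes, which cannot be called, while 35 of the 37 members were detected at the low dose and 36 at the others. The bases are thus unlike, and the shares over detected genes alone would be higher. The members were also chosen with earlier results of these data known, so the shares are a description and not a test. Over the 3 doses 13 members were called, 7 of them higher and 6 lower, and 4 were called at all doses. Within every slide that held control arrays for them, all 26 called values had the sign of their call (2 slides for Irf9, 4 for the others). The same arrays gave the calls, so this adds no separate support. B2m, which was not called, was above control in all 4 slides at each dose too. None was called higher at some dose and lower at another, and 24 were never called. The median change of the members on the log2 scale was 0.00 at the low dose, -0.09 at the medium dose and -0.09 at the high dose, against a median of 0.00 over all genes at each dose. The comparisons of the 3 doses share the same 5 control arrays, so a control array that stood apart would move all of them.

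The members called higher were the antiviral effectors Ifit1, Ifit3, Oasl1 and Oasl2, the ubiquitin-like protein gene Isg15, its ligase Trim25 and the transcription factor gene Irf9. The members called lower were the immunoproteasome subunits Psmb8 and Psmb9, the peptide-loading chaperone Tapbp, the RNA sensor Ddx58 (RIG-I), the ADP-ribosyltransferase Parp9 and the nucleotide hydrolase Samhd1. By role, antiviral effectors held 4 called higher and 1 called lower of 13 at the high dose, and antigen presentation genes 0 higher and 2 lower of 8. The ISG15 system and other induced genes held 2 higher and 1 lower of 8, the sensors 0 higher and 1 lower of 4, and the transcription factors 1 higher and 0 lower of 4. Of all genes 3.82% were called higher and 4.49% lower at this dose. The counts are too small to set the roles apart.

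**Figure D1:**
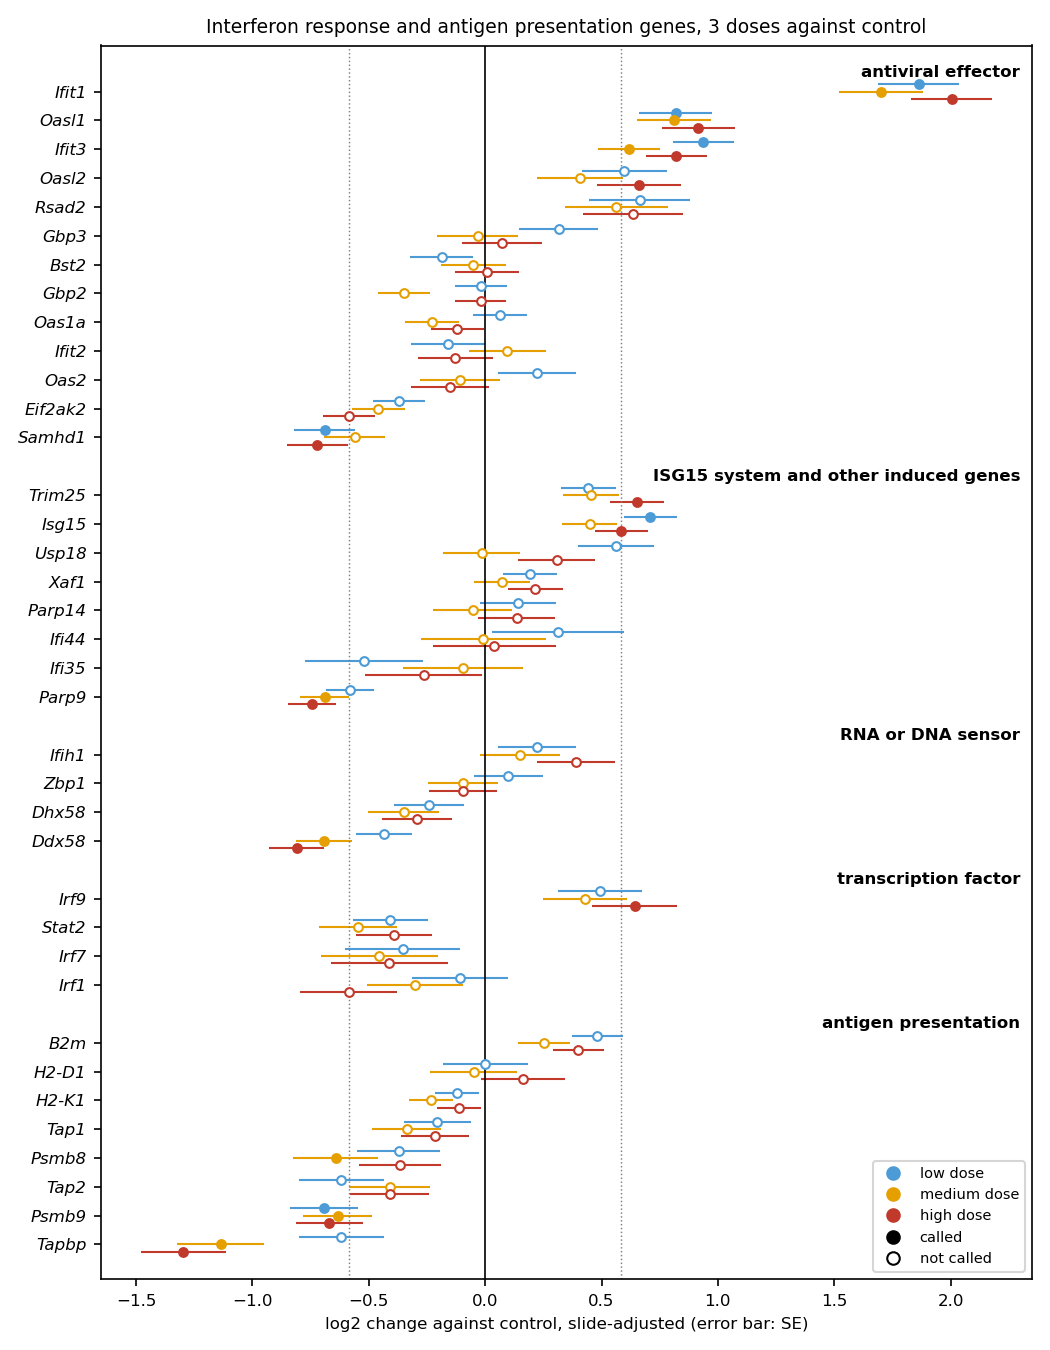
Slide-adjusted log2 change (horizontal axis, with its SE) of the 37 members against control at the low (blue), medium (orange) and high (red) dose, grouped by role. Filled points were called, and the dotted lines mark 1.5-fold. Ifit1 lies apart on the right at 1.70 to 2.00, and Tapbp is the member farthest to the left at the medium and high dose, at -1.14 and -1.30.

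Promoter sequences are shown for members that stand at both ends of this split. The windows come from RefSeq on the build GRCm38.p6, which was used only for gene names and these sequences, and 30 of the 39 members had one. Each window of 300 bases held 250 bases before and 50 bases from a transcription start, and 5 members had several windows. The ISRE core was searched as GAAANNGAAA and the GAS core as TTCNNNGAA, on both strands, and matches of a motif may overlap each other. An ISRE core was found for 13 of 30 members (43.3%) and for 3.99% of all 27025 genes with a window. A GAS core was found for 8 of 30 (26.7%) and for 9.55% of all genes. Of the 7 members called higher 3 had an ISRE core (Ifit1, Ifit3 and Isg15) and 0 a GAS core. Of the 5 members called lower that had a window, 1 had an ISRE core (Ddx58) and 2 a GAS core (Psmb8 and Samhd1). Among the 18 members with a window that were not called, 9 had an ISRE core and 6 a GAS core, and Bst2 was the only member in which the motifs overlapped. A match is a description of the letters and does not show binding. The 200 bases before the start are printed 5′ to 3′ for 3 members called higher with an ISRE core, for Oasl1 without a match, and for 3 antigen presentation genes called lower, with matches in capitals.
Ifit1 (chr19:34640689-34640888, plus strand): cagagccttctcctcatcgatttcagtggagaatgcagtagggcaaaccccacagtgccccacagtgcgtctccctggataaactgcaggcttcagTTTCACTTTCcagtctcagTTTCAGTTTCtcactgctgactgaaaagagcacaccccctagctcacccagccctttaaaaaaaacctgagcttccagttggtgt
Ifit3 (chr19:34583329-34583528, plus strand): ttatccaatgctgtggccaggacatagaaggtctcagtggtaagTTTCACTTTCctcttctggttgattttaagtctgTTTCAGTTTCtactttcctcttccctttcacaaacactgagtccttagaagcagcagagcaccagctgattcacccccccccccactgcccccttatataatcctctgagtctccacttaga
Isg15 (chr4:156200819-156201018, minus strand): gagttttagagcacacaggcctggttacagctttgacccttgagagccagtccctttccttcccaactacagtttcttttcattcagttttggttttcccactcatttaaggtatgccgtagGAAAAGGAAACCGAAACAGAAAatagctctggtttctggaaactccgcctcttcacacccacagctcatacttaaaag
Oasl1 (chr5:114923040-114923239, plus strand): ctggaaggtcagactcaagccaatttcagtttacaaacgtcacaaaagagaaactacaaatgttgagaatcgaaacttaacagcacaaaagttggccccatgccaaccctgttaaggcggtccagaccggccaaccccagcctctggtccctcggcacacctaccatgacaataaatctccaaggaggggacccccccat
Psmb9 (chr17:34187331-34187530, minus strand): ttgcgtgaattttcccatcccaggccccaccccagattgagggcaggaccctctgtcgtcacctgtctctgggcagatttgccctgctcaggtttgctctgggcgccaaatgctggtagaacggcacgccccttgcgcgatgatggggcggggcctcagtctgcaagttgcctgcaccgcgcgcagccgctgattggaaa
Psmb8 (chr17:34197995-34198194, plus strand): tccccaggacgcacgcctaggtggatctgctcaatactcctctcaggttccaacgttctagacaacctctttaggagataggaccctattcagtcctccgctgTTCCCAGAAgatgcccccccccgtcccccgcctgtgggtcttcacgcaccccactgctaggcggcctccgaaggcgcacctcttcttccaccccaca
Tapbp (chr17:33919278-33919477, plus strand): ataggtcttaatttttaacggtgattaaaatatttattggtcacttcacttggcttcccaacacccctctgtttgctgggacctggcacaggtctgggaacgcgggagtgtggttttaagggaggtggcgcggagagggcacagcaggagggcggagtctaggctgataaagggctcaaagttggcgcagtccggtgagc

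In Ifit1 the ISRE cores began 104 and 85 bases before the start, on the minus strand of the window, where the motif is read as its reverse complement. In Ifit3 they began 156 and 122 bases before it. In Isg15 a run of 3 overlapping cores began 78, 72 and 66 bases before the start. The only match in the printed part of Psmb8 was a GAS core 97 bases before the start, and those of Oasl1, Psmb9 and Tapbp held none. The windows of Psmb9 and Tap1, which lie back to back on opposite strands, shared 275 of their 300 bases.

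Ifit1, which binds viral RNA that lacks the host cap methylation, changed more than any other member at every dose. Its log2 ratio on the control arrays was -2.73, -2.15, -2.97, -2.23 and -1.62. On the medium dose arrays it was -0.76, -1.04, -0.72, -0.07 and -0.60. The low dose arrays ran from -0.76 through a median of -0.49 to -0.12, and the high dose arrays from -0.74 through -0.28 to -0.08. Every exposed array lay above every control array. Against control the fitted change was 1.86 ± 0.18 (SE) on the log2 scale at the low dose (3.64-fold, adjusted p = 2.2e-06), 1.70 ± 0.18 at the medium dose (3.25-fold, adjusted p = 4.8e-06) and 2.00 ± 0.18 at the high dose (4.01-fold, adjusted p = 2.1e-07). All adjusted p-values here are from limma, corrected by the Benjamini-Hochberg method over all 55681 probes. The control signal was dim, with 3 of 5 arrays detected and 1 of 5 well above background, so the probe passed the detection rule through the exposed groups alone. All 17 exposed arrays were well above background. The size of the change therefore depends on how the dim control spots are treated, and from the scanner's own log ratio it was 3.40, 3.40 and 3.74 with rising dose. Within each of the 4 slides that held control arrays the difference from control was positive at every dose, from 1.02 to 2.78.

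Ifit3, a relative of Ifit1, was called higher at all doses by a smaller amount. The control arrays were at -1.94, -1.33, -1.98, -1.93 and -1.09, and the medium dose arrays at -1.19, -1.22, -1.04, -0.87 and -0.85. The low dose arrays lay between -0.89 and -0.34 with a median of -0.80, and the high dose arrays between -1.22 and -0.45 with a median of -0.93. All 6 low dose arrays were above every control array, and 3 of 5 medium dose and 5 of 6 high dose arrays were. After adjustment for slide, every exposed array was above every control array. The fitted changes were 0.94 ± 0.13 at the low dose (1.92-fold, adjusted p = 0.00018), 0.62 ± 0.13 at the medium dose (1.54-fold, adjusted p = 0.0065) and 0.82 ± 0.13 at the high dose (1.77-fold, adjusted p = 0.00024). The medium dose call was lost without control replicate 1, 3 or 4 or medium dose replicate 3 or 4, when the change was 0.54 to 0.57. Their relative Ifit2, of the same gene cluster, was not called at any dose, with changes of -0.16, 0.10 and -0.13 (smallest adjusted p = 0.75).

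Oasl1 and Oasl2 encode relatives of the 2′-5′-oligoadenylate synthetases. Oasl1 was at -4.47, -3.48, -4.72, -4.66 and -4.27 on the control arrays and at -3.17, -3.15, -3.91, -3.50 and -3.83 on the medium dose arrays. Its range was -4.15 to -2.57 at the low dose (median -3.78) and -4.02 to -3.03 at the high dose (median -3.48). The groups overlapped in the log2 ratios because control replicate 2, on slide 1, was as high as many exposed arrays, but after adjustment for slide every exposed array was above every control array. High dose replicate 5, the lowest of its group, was on slide 5, which held no control array. Its adjusted place was set, together with low dose replicate 5, by the group means of the fit, so its separation from the controls is partly built in. The changes were 0.82 ± 0.16, 0.81 ± 0.16 and 0.92 ± 0.16 with rising dose (adjusted p = 0.0038, 0.0032 and 0.00051), and all were called. Without the slide term none of these 3 calls was made. Oasl2 was at -3.82, -2.84, -3.94, -3.62 and -2.80 on the control arrays and at -3.42, -2.58, -3.16, -3.04 and -2.77 on the medium dose arrays, and it ran from -3.48 to -2.08 over the low dose arrays (median -2.78) and from -3.37 to -2.41 over the high dose arrays (median -2.66). It was called at the high dose only, where it changed by 0.66 ± 0.18 (1.58-fold, adjusted p = 0.025), with 5 of 6 arrays above every control array. The control probe was detected, and well above background, on 3 of 5 arrays, and the call was lost without control replicate 1, 3 or 4 or high dose replicate 1 or 4, when the change was 0.53 to 0.66. At the low and medium dose its changes were 0.60 (adjusted p = 0.082) and 0.41 (adjusted p = 0.29), and the difference between doses was not called. From the scanner's own log ratio the changes were 1.14, 0.97 and 1.32 with rising dose, and Oasl2 was called at each dose (largest adjusted p = 0.012). As for Ifit1, the probe passed the detection rule through the exposed groups alone. The size of its change therefore also depends on how the dim control spots are treated, and the scanner's calls are not separate support. The synthetases Oas1a and Oas2 were not called at any dose, at 0.06, -0.23 and -0.12 for Oas1a and 0.22, -0.11 and -0.15 for Oas2. These families have similar sequences, and how far a probe binds transcripts of relatives was not tested.

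**Figure D2:**
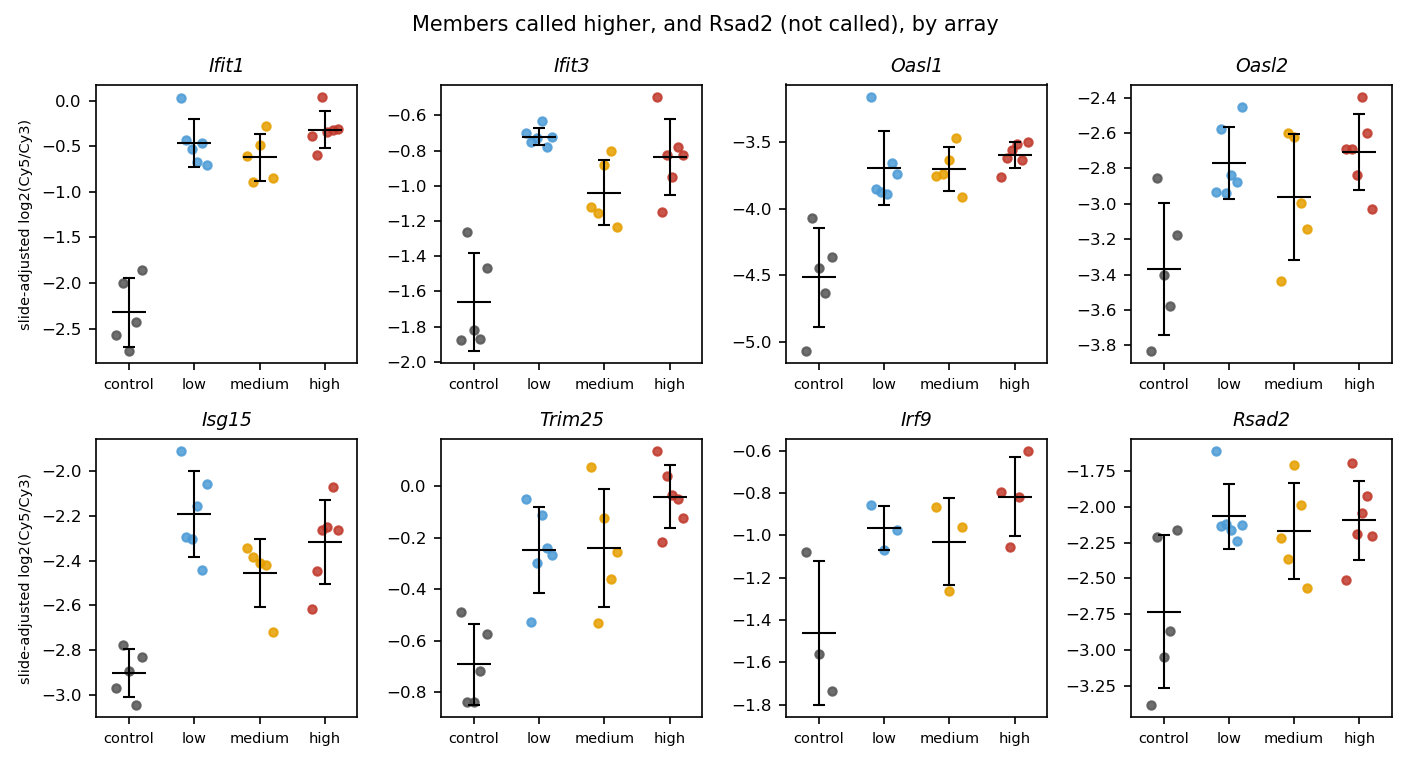
Slide-adjusted log2 ratio (vertical axis) of the 7 members called higher and of Rsad2, 1 point per array, with the mean and SD of each group as bars. In Ifit1 all exposed arrays sit above all control arrays with the widest gap, while in Oasl2, Trim25, Irf9 and Rsad2 some exposed arrays reach the control range.

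Isg15 encodes a ubiquitin-like protein that is joined to other proteins during the response. Its control arrays were at -2.83, -2.64, -3.33, -2.80 and -2.63 and its medium dose arrays at -2.20, -2.24, -2.84, -2.18 and -2.52. It ran from -2.74 to -1.77 over the low dose arrays (median -2.03) and from -2.70 to -2.01 over the high dose arrays (median -2.26). In each exposed group 1 array overlapped the control range, and none did after adjustment for slide. The change was 0.71 ± 0.12 at the low dose (1.64-fold, adjusted p = 0.00087), 0.45 ± 0.12 at the medium dose (1.36-fold, adjusted p = 0.027) and 0.59 ± 0.12 at the high dose (1.501-fold, adjusted p = 0.0019). It was thus called at the low and high dose, the latter at the edge of the fold threshold, and with the replicate number as a block the high dose change of 0.50 was below it. Leaving out any of 10 single arrays (control replicates 1 and 4, low dose replicates 1, 4, 5 and 6, high dose replicates 3 to 6) had the same effect, with changes of 0.54 to 0.58. A second Isg15 probe gave 0.58, 0.45 and 0.42 and was not called (smallest adjusted p = 0.067). Usp18, the protease that removes ISG15, changed by 0.56, -0.01 and 0.31 and was not called (smallest adjusted p = 0.069). At the low dose it was called without control replicate 2 (0.67, adjusted p = 0.042) or 5 (0.74, adjusted p = 0.012), and the scanner's own log ratio gave calls at the low and high dose (1.15 and 0.81).

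Trim25, a ubiquitin and ISG15 ligase that also activates RIG-I, was above every control array on all 6 high dose arrays. Its log2 ratio was -0.42, -0.77, -0.84, -0.71 and -0.53 on the control arrays and ran from -0.18 to 0.20 at the high dose (median -0.05). It was 0.14, -0.46, -0.12, -0.35 and -0.21 on the medium dose arrays and ran from -0.46 to 0.02 at the low dose (median -0.26), where both groups reached the control range. The high dose change was 0.65 ± 0.12 (1.57-fold, adjusted p = 0.00084). At the low and medium dose it was 0.44 ± 0.12 and 0.45 ± 0.12, past the adjusted p of 0.05 (0.039 and 0.028) but not 1.5-fold. Irf9, the DNA-binding subunit of ISGF3, was called at the high dose with a change of 0.64 ± 0.18 (1.56-fold, adjusted p = 0.048). That call is weak, since 9 of its 22 spots were missing as outliers, 8 of them on slides 2 and 3. Values remained for 3 control and 4 high dose arrays. High dose replicate 5 was the only array with a value on slide 5, so the slide term absorbed it. That array did not inform the change, which stayed at 0.64 without it. The control arrays with a value were at -0.58, -1.06 and -1.74, the medium dose arrays at -0.36, -0.76 and -0.96, and the low dose arrays between -0.97 and -0.36. The 4 high dose arrays lay between -0.77 and -0.29, and 2 of them were above every control array. The call was lost in 30 of 42 alternatives, among them the omission of any of 15 single arrays (all but control replicate 1, low dose replicates 3 and 4, medium dose replicates 2 to 4 and high dose replicate 2), with changes of 0.46 to 0.64. Some of these arrays held no Irf9 value (control replicates 3 and 4, low dose replicate 5, high dose replicates 3 and 4). Without any of them the change stayed at 0.64, and only the adjusted p moved, to between 0.052 and 0.060.

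The other transcription factors of the list gave no call. Stat2, the transactivating subunit of ISGF3, was at -0.05, -0.89, -0.38, -0.55 and -1.001 on the control arrays and at -1.15, -1.43, -0.95, -1.04 and -1.03 on the medium dose arrays. Its low dose arrays lay between -1.30 and -0.77 (median -0.996) and its high dose arrays between -1.23 and -0.56 (median -1.10), and the groups overlapped. It changed by -0.41, -0.55 and -0.39 with rising dose (adjusted p = 0.23, 0.063 and 0.19). The medium dose value was called without control replicate 2 or 5, at -0.64 or -0.68. Irf1, which drives immunoproteasome and transporter genes, was at -0.18, -0.13, -0.29 and -1.64 on the 4 control arrays with a value and at -0.69, -0.83, -0.86 and -1.07 on those of the medium dose. It ran from -1.34 to -0.06 over the low dose arrays (median -0.76) and from -1.25 to -1.02 over the high dose arrays (median -1.16). Control replicate 5 lay far below the other controls, and the control range covered the high dose. Irf1 changed by -0.11, -0.30 and -0.59 (smallest adjusted p = 0.11), with 5 of its 22 spots missing. Without control replicate 5 the high dose value was -0.84 (adjusted p = 0.0065) and without high dose replicate 6 it was -0.79 (adjusted p = 0.027), and both were called. Those arrays were on slide 4, the only 1 of 3 slides with values where the high dose difference from control was above 0 (0.44). A dimmer second Irf1 probe, detected on 9 of 22 arrays, gave 0.06, -0.19 and 0.09 and was not called (smallest adjusted p = 0.39). Irf7, the factor that amplifies interferon genes, was well above background on 5 arrays in all and on none of the medium dose arrays, and its values overlapped between groups. The 4 control arrays with a value were at -3.05, -2.13, -2.40 and -1.30, and the medium dose arrays at -3.20, -2.37, -2.95, -2.39 and -2.82. It ran from -3.12 to -1.74 over the low dose arrays (median -2.80) and from -2.92 to -2.37 over the high dose arrays (median -2.75). Its changes were -0.36, -0.45 and -0.41 (smallest adjusted p = 0.44).

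Rsad2, the antiviral enzyme viperin, had a change of 0.66 ± 0.22, 0.56 ± 0.22 and 0.64 ± 0.22 but missed the threshold at each dose (adjusted p = 0.11, 0.19 and 0.084). It was called at the high dose without control replicate 2 (0.78, adjusted p = 0.034) or 5 (0.83, adjusted p = 0.018) and from the scanner's own log ratio (1.98, adjusted p = 0.030), and at the medium dose without control replicate 5 (0.75, adjusted p = 0.0496). It was not well above background on any control array, so its group means were also set against a floor. That floor is the lowest signal that was well above background, or the control signal where that was higher. The low dose mean was 1.54-fold the floor, with 2 of 6 arrays well above background, and the high dose mean 1.55-fold, with 5 of 6. At the medium dose it was 1.40-fold, with 2 of 5 arrays. These folds include exposed arrays near background and leave out the spread between arrays, so they are not strict bounds. The difference from control was above 0 in 4, 3 and 3 of 4 slides with rising dose. Within slide 4 it was 0.03, -0.41 and -0.05.

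The calls among the 8 antigen presentation genes, 1, 3 and 2 with rising dose, were all lower, beside 2.05%, 3.11% and 4.49% of all genes. These calls are few, and B2m, given below, had changes above 0 without a call. The immunoproteasome subunit Psmb9 (LMP2), which shapes peptides for MHC class I, was called lower at all 3 doses. Its control arrays were at -3.63, -3.04, -3.34, -3.12 and -2.87 and its medium dose arrays at -4.02, -3.79, -3.94, -3.77 and -3.65. The low dose arrays lay between -4.43 and -3.52 (median -3.79) and the high dose arrays between -4.25 and -3.53 (median -3.69). All 5 medium dose arrays, 4 of 6 low dose and 5 of 6 high dose arrays were below every control array. The changes were -0.69 ± 0.15 (adjusted p = 0.0083), -0.63 ± 0.15 (adjusted p = 0.013) and -0.67 ± 0.15 (adjusted p = 0.0046), and in each of 4 slides the difference from control was negative at every dose. The low dose call was lost without low dose replicate 4, where the change was -0.54, and the medium dose call without control replicate 2, where it was -0.57. Psmb8 (LMP7), its partner subunit, was called at the medium dose only, with -0.64 ± 0.18 (adjusted p = 0.042), and it was at -0.37 at both other doses. Its control arrays were at -3.96, -3.43, -3.71, -3.61 and -2.79 and its medium dose arrays at -4.61, -3.94, -4.20, -4.06 and -3.91, of which 3 lay below every control array. It ran from -4.32 to -3.24 over the low dose arrays (median -3.98) and from -4.42 to -3.41 over the high dose arrays (median -3.88). The call was lost without any of 11 single arrays (control replicates 2 to 5, low dose replicates 2 and 3, medium dose replicates 1, 4 and 5, high dose replicates 2 and 4), with changes of -0.70 to -0.54.

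Tapbp (tapasin), which holds MHC class I at the peptide transporter, had the largest decrease of the members at the medium and high dose. On the control arrays it was at -2.14, -1.53, -1.39, -1.29 and -0.83, and on the medium dose arrays at -3.43, -2.61, -2.62, -1.98 and -2.22. The low dose arrays ran from -3.15 to -1.16 with a median of -1.87, and the high dose arrays from -3.17 to -2.19 with a median of -2.70. All 6 high dose arrays were below every control array, with 4 of 5 at the medium and 2 of 6 at the low dose. The change was -0.62 ± 0.18 at the low dose (1.54-fold, adjusted p = 0.07), -1.14 ± 0.19 at the medium dose (2.20-fold, adjusted p = 0.00056) and -1.30 ± 0.18 at the high dose (2.46-fold, adjusted p = 6.1e-05). With the slide term replaced by the replicate number as a block, the low dose change was -0.68 and was called (adjusted p = 0.0047), as it was without low dose replicate 2 or 6 (-0.70 and -0.71). Without the slide term the medium dose call was lost.

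The remaining presentation genes were not called. Tap1 was at -1.16, -0.70, -1.34, -1.48 and -0.73 on the control arrays and at -1.40, -0.82, -1.64, -1.49 and -1.76 on the medium dose arrays. It ran from -1.83 to -0.89 over the low dose arrays (median -1.35) and from -1.61 to -0.94 over the high dose arrays (median -1.45), within reach of the controls at each dose. The transporter genes Tap1 and Tap2 changed by -0.20, -0.34 and -0.22 and by -0.62, -0.41 and -0.41 (smallest adjusted p = 0.27 and 0.072). With the replicate number as a block the low dose change of Tap2 was -0.68 and was called (adjusted p = 0.015), as it was without control replicate 1 (-0.73) or low dose replicate 2 (-0.71). Tap1 and Psmb9, which share most of their promoter windows, thus fell on different sides of the threshold, and whether their changes differed was not tested. H2-K1, an MHC class I heavy chain, was at -2.46, -2.32, -2.52, -2.63 and -2.43 on the control arrays and at -2.77, -2.42, -2.78, -2.88 and -2.68 on the medium dose arrays. It ran from -2.73 to -2.49 over the low dose arrays (median -2.58) and from -2.81 to -2.40 over the high dose arrays (median -2.51), so the groups overlapped. H2-K1 and the other heavy chain gene H2-D1 changed by -0.12, -0.23 and -0.11 and by 0.00, -0.05 and 0.16 (smallest adjusted p = 0.22 and 0.78), and a second H2-K1 probe was not called either. Class I genes are alike in sequence and vary between strains, so these probes may bind transcripts of related genes. B2m, the class I light chain, had a change above 0 where Tapbp and Psmb9 were below it. Its control arrays were at -2.20, -2.17, -2.15, -2.36 and -2.49 and its medium dose arrays at -2.15, -1.98, -1.99, -2.07 and -1.92. It ran from -2.08 to -1.52 over the low dose arrays (median -1.79) and from -2.15 to -1.69 over the high dose arrays (median -1.86). The change was 0.48 ± 0.11 at the low dose (1.40-fold, adjusted p = 0.014) and 0.40 ± 0.11 at the high dose (1.32-fold, adjusted p = 0.025). These passed the adjusted p but not the fold, and the medium dose gave 0.25 (adjusted p = 0.28). All 6 low dose and 5 of 6 high dose B2m arrays were above every control array.

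**Figure D3:**
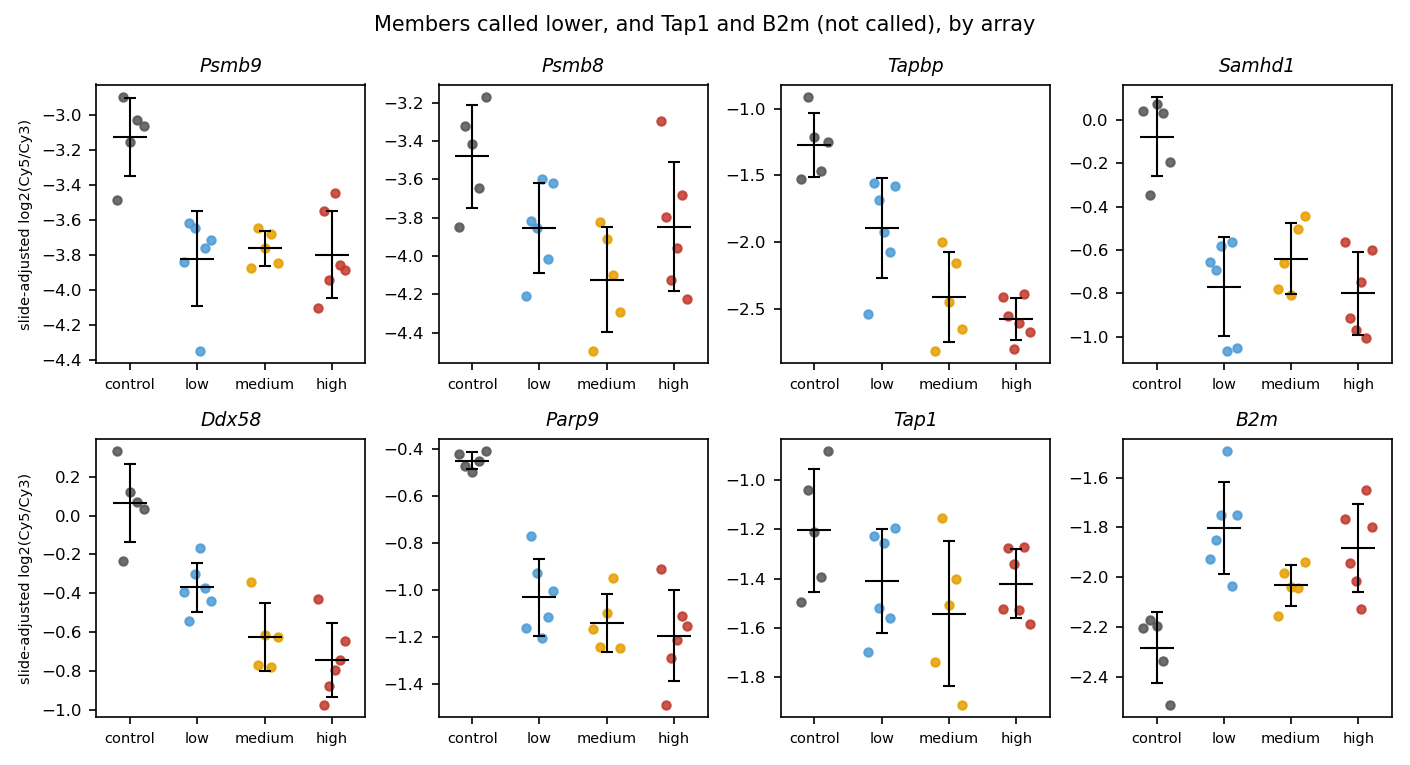
Slide-adjusted log2 ratio (vertical axis) of the 6 members called lower and of Tap1 and B2m, 1 point per array, with the mean and SD of each group as bars. The Parp9 control arrays lie above every exposed array, Tapbp lies lowest at the medium and high dose, Tap1 overlaps the control range at each dose and B2m lies higher in the exposed arrays.

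Among the remaining roles, the sensor Ddx58, the induced gene Parp9 and the antiviral effector Samhd1 were called lower. Ddx58 encodes RIG-I, which detects RNA with a 5′ triphosphate. It was at 0.51, -0.06, 0.07, 0.14 and -0.02 on the control arrays and at -0.17, -0.59, -0.66, -0.72 and -0.68 on the medium dose arrays. The low dose arrays lay between -0.51 and -0.10 (median -0.36) and the high dose arrays between -0.93 and -0.25 (median -0.76), so every exposed array was below every control array. The change was -0.44 ± 0.12 at the low dose (1.35-fold, adjusted p = 0.049), -0.69 ± 0.12 at the medium dose (1.62-fold, adjusted p = 0.0011) and -0.81 ± 0.12 at the high dose (1.75-fold, adjusted p = 0.00011), with calls at the medium and high dose. A dimmer second Ddx58 probe gave -0.08, -0.16 and -0.26 and was not called (smallest adjusted p = 0.32), and the calls were lost when both probes were combined by their median. The other RNA sensors Ifih1 (MDA5) and Dhx58 (LGP2) and the nucleic acid sensor Zbp1 were not called, with changes between -0.35 and 0.39.

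Parp9, which works with DTX3L in antiviral signalling, had the tightest control arrays, at -0.47, -0.52, -0.56, -0.49 and -0.39. The medium dose arrays were at -1.21, -1.29, -1.16, -0.99 and -1.23, the low dose arrays between -1.24 and -0.82 (median -0.99) and the high dose arrays between -1.53 and -0.96 (median -1.19). Every exposed array was below every control array. Its changes were -0.58 ± 0.10 (1.496-fold, adjusted p = 0.0023), -0.69 ± 0.11 (adjusted p = 0.00033) and -0.74 ± 0.10 (adjusted p = 6.5e-05), and the low dose missed the call by its fold alone. It was called there without control replicate 2 or 3, low dose replicate 2, 3 or 6 or high dose replicate 1, at -0.65 to -0.59. Parp14, of the same family, changed by 0.14, -0.05 and 0.13 and was not called.

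Samhd1 encodes an enzyme that breaks down deoxynucleotides and so limits viral DNA synthesis. The control arrays were at 0.33, -0.05, 0.15, -0.11 and -0.35, and the medium dose arrays at -0.49, -0.37, -0.73, -0.64 and -0.60. It ran from -1.21 to -0.36 over the low dose arrays (median -0.57) and from -1.08 to -0.27 over the high dose arrays (median -0.82). All exposed arrays except 1 of the high dose lay below every control array. The change was -0.69 ± 0.13 at the low dose (adjusted p = 0.0033), -0.56 ± 0.13 at the medium dose (adjusted p = 0.013) and -0.72 ± 0.13 at the high dose (adjusted p = 0.00084), and the medium dose value was 1.48-fold and not called. It was called without control replicate 2 or 5 or medium dose replicate 4 or 5, at -0.63 to -0.60. A second Samhd1 probe gave -0.37, -0.24 and -0.44 and was not called (smallest adjusted p = 0.075). Eif2ak2, the RNA-activated kinase PKR that stops translation, changed by -0.37, -0.46 and -0.58 (adjusted p = 0.078, 0.019 and 0.0015), which passed the adjusted p at the medium and high dose but not the fold. With the replicate number as a block its high dose change of -0.63 was called, and so was that without any of 8 single arrays (control replicates 1 and 3, low dose replicates 2, 5 and 6, high dose replicates 3, 5 and 6), at -0.64 to -0.59. The other members without a call were the guanylate-binding proteins Gbp2 and Gbp3, the tethering factor Bst2, and Ifi35, Ifi44 and Xaf1, with changes between -0.52 and 0.32. Ifi44 was not well above background on any array.

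Compared directly with each other, the doses gave no member a call. Of all genes 0% were called for medium against low dose, 0% for high against medium dose and 0.31% for high against low dose. For high against low dose the smallest adjusted p of a member was 0.11, that of Tapbp, with a change of -0.68 ± 0.17. Tapbp became the 1 member called, at -0.68 with the replicate number as a block (adjusted p = 0.017) and at -0.82 without low dose replicate 1 (adjusted p = 0.013). That array, on slide 1, stood apart from its group over the whole array. Projected on the high dose change of 2437 called probes, it was at 0.854 of it against 0.539 to 0.730 for the other low dose arrays, while the medium dose arrays lay between 0.749 (replicate 2, also on slide 1) and 0.898 with no array apart. Without low dose replicate 1 and medium dose replicate 2 together, the counts of members called against control moved by no more than 1.5 times.

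The other genes of the pathway came from a list of 69, chosen with earlier results of these data known. A probe was found for 68 of them (Ifnl2 had none). At the low dose 1 was called higher and 0 lower, at the medium dose 2 higher and 5 lower, and at the high dose 3 higher and 4 lower. Of all named genes 1.48% and 2.05% were called higher and lower at the low dose, 2.84% and 3.11% at the medium dose and 3.82% and 4.49% at the high dose, and nothing about the list is read from these small counts. Of the 8 interferon genes with a probe 3 were detected in the high dose comparison, and none was called at any dose. Ifnb1 was detected on 1 of 22 arrays and changed by 0.09 at the high dose. Of the 10 receptors and kinases none was called. Among them Jak2, the kinase of the interferon gamma receptor, passed the adjusted p at each dose with changes of -0.52, -0.57 and -0.45 but not the fold (adjusted p = 0.0046, 0.0015 and 0.0063). Of the 5 negative regulators none was called.

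Among 20 further interferon-induced genes, Rtp4, an interferon-induced chaperone of receptor transport, was called higher at all doses. It changed by 1.05 ± 0.15, 0.68 ± 0.16 and 0.86 ± 0.15 (adjusted p = 0.00027, 0.0098 and 0.00069). Adar, the RNA-editing enzyme, was called higher at the high dose at 0.60 ± 0.13 (adjusted p = 0.0039). The membrane proteins Ifitm2 and Ifitm3, which block virus entry, were called lower at the medium and high dose. Ifitm3 changed by -1.16 ± 0.26 and -1.28 ± 0.26 there (adjusted p = 0.0094 and 0.0022), and Ifitm2 by -0.88 ± 0.25 and -1.09 ± 0.25 (adjusted p = 0.047 and 0.0063). The exonuclease Isg20 was called lower at the medium dose at -0.61 ± 0.15 (adjusted p = 0.014). Of the 9 sensing adaptors and kinases, the DNA sensor Cgas was called higher at the medium and high dose, at 0.67 ± 0.19 and 0.82 ± 0.19 (adjusted p = 0.044 and 0.0071).

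Of 10 further class I presentation genes 2 were called lower, at the medium and high dose (beside 3.11% and 4.49% of all genes), and none higher. The peptide-loading chaperone Calr (calreticulin) changed by -1.05 ± 0.25 and -1.41 ± 0.24 (adjusted p = 0.012 and 0.00052). The proteasome activator Psme1 changed by -0.79 ± 0.14 and -0.67 ± 0.14 (adjusted p = 0.0011 and 0.0024). Of 6 class II presentation genes 3 were detected at the high dose and none was called.

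**Figure D4:**
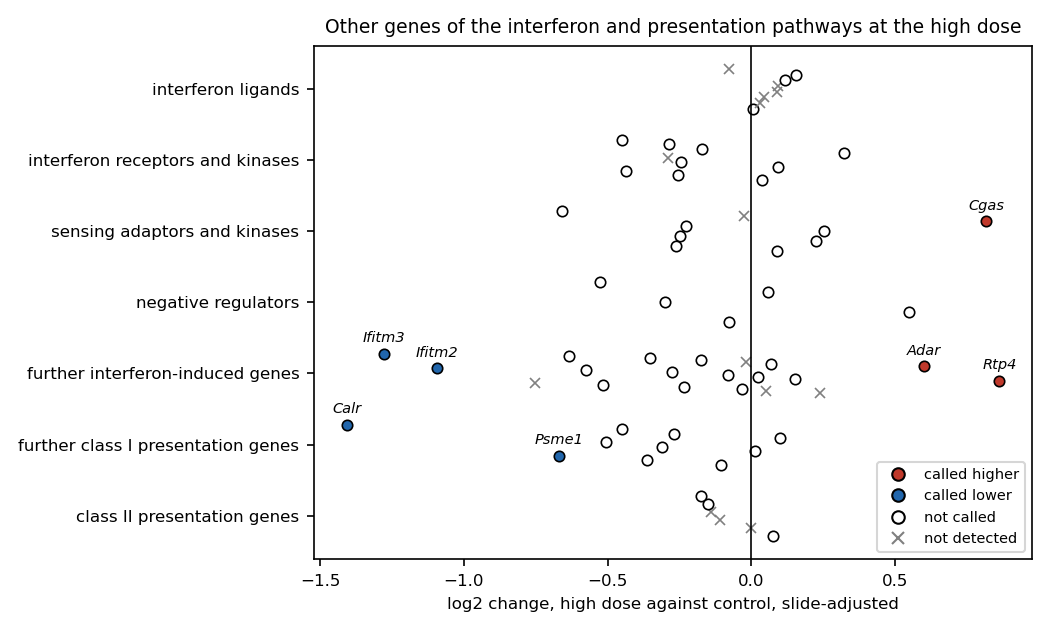
Slide-adjusted log2 change at the high dose (horizontal axis) of the 68 other genes of the pathway, 1 symbol per gene, grouped by list. Coloured points were called, open points were not and crosses were not detected. Calr, Ifitm3, Ifitm2 and Psme1 lie left at -1.41 to -0.67, Adar, Cgas and Rtp4 lie right at 0.60 to 0.86, and no ligand or receptor is coloured.

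The labelled cell type was checked by its markers. The epithelial keratins Krt8 and Krt18 were detected on all 22 arrays and Krt19 on 21, but Cdh1 on none and Epcam well above background on none. The keratins lay far below the reference, at -4.99 to -3.74 for Krt8, -6.25 to -4.96 for Krt18 and -5.69 to -4.03 for Krt19. The summed Cy5 signal of the 5 epithelial markers lay between 9.5 and 11.6 on the log2 scale in control. At the high dose it lay between 10.1 and 11.1. Of the lung epithelial markers, the surfactant gene Sftpc was detected on 17 arrays (well above background on 14) and the secretory cell gene Scgb1a1 on 21 (well above background on 18), but the lung factor Nkx2-1 on none. Of the leukocyte markers Ptprc was detected on 21 arrays, Itgam on 22, Adgre1 on 19 and Cd3e on 22, and none of the 4 was called. Their summed Cy5 signal lay between 12.3 and 14.2 on the log2 scale in control and between 13.0 and 13.8 at the high dose. The fibroblast markers Col1a1, Col1a2 and Pdgfra, which a line grown in culture may also express, were called lower at all doses, with high dose changes of -1.34, -1.52 and -1.53. Their summed signal lay between 16.6 and 18.8 in control and between 16.1 and 17.6 at the high dose. They moved in the direction of the members called lower, and their part in that was not tested. In RNA of whole cultures, fewer cells of a type and less RNA per cell cannot be told apart. The number of detected probes per array was 23688 to 39139. The labels call the samples of a group biological replicates but do not tie an array to an experiment day. The methods of the study speak of separate exposure experiments, fewer than the arrays of a group, so arrays may share an experiment and the p-values measure the spread between arrays, part of which may be technical.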

How the data were processed

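The deposited scanner files hold, for each spot, the median Cy5 and Cy3 intensity and the local background intensity, which the authors extracted without normalisation. The file headers name Feature Extraction 10.7.3.1 and a grid annotated on mm9, and the study's methods name other versions. A log10 ratio made by the scanner software is also in the deposited files, and the authors' series matrix holds log2 ratios whose normalisation is not stated. Its columns correlated with their own arrays at 0.840 or more (median 0.985), their medians were 0.0043 to 0.0267 and their spread was 0.678 to 0.991 of that of the loess ratios, so the direction is Cy5 over Cy3. All columns were matched to samples, and both tables served as alternatives.

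Spots marked as non-uniform or outliers (0.401% to 6.22% per array) were left out as missing. The median signals, not corrected for background, were turned into log2(Cy5/Cy3) and loess-normalised within each array. Spots of a probe were combined by their median. Of 55681 probes 26413 matched a name by accession, and the brightest probe stood for a gene. The detection limit of an array was 3 trimmed SDs above the 5% trimmed mean Cy5 signal of its 308 negative control spots. The comparisons used limma 3.58.1 (R 4.3.3) in 1 model over 22 arrays with group and slide as terms, in place of the study's MAANOVA test, which was not run here. The model was tested on simulated data with independent noise on each array. Deviations that arrays share, as by slide or exposure, were not simulated, so their effect on the p-values was not tested. A fold is 2 to the power of the size of the change. Arrays have no read depth, so precision was set by their number.

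Slide 1 held 2 arrays of each group, slides 2 to 4 held 1 of each, and slide 5 held 1 low and 1 high dose array. Of the labels' sample numbers, all 31 pairs with the same number in different groups deviated together (r = 0.174 to 0.823), and 27 of the pairs shared a slide. The 4 that did not had r = 0.280 to 0.510. The 16 pairs on the same slide with different numbers had r = 0.042 to 0.551, so slide and number are not fully separated. The main model holds slide and not the number, which served as a block in an alternative. No arrays were duplicates, with at most 2.36% of spots equal. The members, the lists and the tests were chosen with earlier results of these data known. By rule, values on every array were given for the members called at any dose (the 12 with the largest change if more) and for Irf1, Irf7, Irf9, Stat2, Isg15, Ifit1, Tap1, Psmb8, B2m and H2-K1. The remaining members were given by their changes, and other pathway genes where called or as ligands and receptors. Promoter windows were used for sequence only.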

Additional observations from a re-analysis of the deposited data

Results flagged for a closer look

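In 6 of 73 groups of arrays tested, 1 array lay far from the others by Dixon's test, which chance gives for about 1 group in 20. Control replicate 3 was low for Isg15, with a log2 ratio of -3.33, where the other control arrays lay between -2.83 and -2.63. Replicate 3, on slide 3, was also the lowest array of each exposed group for Isg15, at -2.74 (low dose), -2.84 (medium dose) and -2.70 (high dose). Control replicate 5 was low for Irf1 at -1.64, and the high dose change of Irf1 was called without it. Low dose replicate 6 was high for Ifit3 at -0.34. High dose replicate 3 was low for Oasl2 at -3.37. Medium dose replicate 1 and high dose replicate 1, both on slide 1, were high for Ddx58, at -0.17 and -0.25, within the exposed groups, as was control replicate 1 among the controls, and after adjustment for slide all medium and high dose arrays lay below every control array.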

How the results depend on the processing

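Of 26 called values of members, 4 were kept in all 42 alternatives (Ifit1 at each dose and Tapbp at the high dose), 19 were kept without any single array, and none changed sign. The value of Irf1 at the low dose, which was not called, changed sign to 0.26 with slide 1 left out. With median centring in place of loess the members called were 1 higher and 1 lower at the low dose, 1 lower at the medium dose and 4 higher at the high dose, and the median low dose change was -0.13. Calls lost with it were Ifit3, Isg15, Oasl1 and Samhd1 at the low dose and Ifit3, Ddx58, Parp9, Psmb8 and Psmb9 at the medium dose. At the high dose Isg15, Irf9, Trim25, Ddx58 and Samhd1 lost theirs, and Eif2ak2 was called lower. Normexp background correction gave 4 lower at the low dose and 4 higher at the high dose. The log ratio of the scanner software gave 5 higher at the medium dose, and the series matrix 2 lower at the medium dose and 4 higher at the high dose. A call at 2-fold left 1 higher and 0 lower at the low dose, 1 higher and 1 lower at the medium dose and 1 higher and 1 lower at the high dose, since few members changed by that much. Without a fold threshold 4 were lower at the low dose and 5 higher at the medium dose. Without the slide term 2 were higher at the low dose, 1 higher and 3 lower at the medium dose and 3 higher at the high dose. With the replicate number as a block 4 were lower at the low dose and 1 (Tapbp) was called for high against low dose, and beside the calls of Isg15, Tapbp, Tap2 and Eif2ak2 given above the block changed no other call. With only the 2 groups compared in the model 1 was lower at the low dose and 4 higher at the high dose. The median over the detected probes of a gene gave 4 lower at the low dose.

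Without slide 1 the counts were 4 lower at the low dose and 3 lower at the medium dose, without slide 2 they were 1 lower at the low dose and 4 higher at the high dose, and without slide 3 they were 3 lower at the medium dose and 4 higher at the high dose. Without slide 4 the median high dose change was 0.0451. Without low dose replicate 1 and medium dose replicate 2 together, 1 member was called for high against low dose. Leaving out single arrays gave 4 to 7 higher and 5 to 7 lower at the high dose, 1 to 5 lower at the low dose, a median high dose change of -0.129 to 0.0394 (without control replicate 5) and 0 to 1 members called for high against low dose. The count of 4 higher came without control replicate 4 or high dose replicate 4. At the low dose 5 were lower without low dose replicate 2, 4 without low dose replicate 6 and 1 without low dose replicate 4. The causes of these shifts were not tested, except where fewer arrays or a stricter threshold sets them. The remaining alternatives left every count within 1.5 times. Dim probes limit Rsad2, Irf7 and Ifi44, and Ifit1 and Oasl2 in control.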
